A study of Mus musculus with 3 samples.

Results

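Glycolysis and hypoxia genes were followed through the cell classes of KP1 tumors. The list holds 32 of the 33670 gene symbols in the count tables, 20 of them for glycolysis and 12 for the response to low oxygen. The members were taken by name: 2 glucose transporters, the enzymes from hexokinase to lactate dehydrogenase, 2 enzymes that set the level of fructose 2,6-bisphosphate, 2 lactate transporters, and genes that hypoxia-inducible factor (HIF) is known to switch on. All 32 were found in the tables.

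The cells came from 3 single-cell libraries, 1 for each treatment. Wild-type female B6129SF1/J (F1) mice carried subcutaneous KP1 tumors, grown from 1 Rb/p53 mutant small-cell lung cancer line, after injection of 500000 cells. The first group received mono-IL-10, a monomeric interleukin-10 that acts through the IL-10 receptor. The second received IL-10/2-Trikine, in which the same cytokine is joined to a binder that also recruits IL-2Rβ. The third received IL-10/2-Trikine + anti-PD-1. Each cytokine dose was 3 µg, repeated on alternate days starting on day 7 by the protocol for these cells, while the study elsewhere puts the first dose earlier, and tumors were taken on day 19. The antibody dose was 200 µg, and its schedule included days 7, 11, 15 and 19. The treatment label names the antibody for the third group only, and so does the study's account of its single-cell groups. The protocol for preparing these cells, however, names the antibody together with both cytokines, so whether the first and second libraries had it too was not settled by the sources used here, and the treatment labels were followed. The methods also give an age at purchase for this strain, but no source used here gives the number of mice behind a library. The samples are labelled T cells, whereas the sort was for live CD45+ leukocytes, and the libraries held T cells, NK cells, macrophages, monocytes, neutrophils and KP1 tumor cells.

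Glycolysis turns glucose into pyruvate and yields ATP without oxygen, and Ldha turns that pyruvate into lactate. T cells and NK cells are known to raise the pathway when they are activated and divide. Under low oxygen the prolyl hydroxylases that mark HIF for destruction slow down, HIF binds promoters with the core sequence ACGTG, and genes for glucose uptake, glycolysis and adaptation to low oxygen are transcribed. HIF can also be stabilized by cytokine and innate signals at normal oxygen, so these genes do not report oxygen alone.

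Members' promoters were read from RefSeq on GRCm38.p6, from 250 bases before to 50 after each annotated start. The core ACGTG was sought on both strands, where a palindromic CACGTG counts once on each. It stood in at least 1 promoter of 22 of the 29 members with an entry, 13 of 19 for glycolysis and 9 of 10 for hypoxia. By start, 25 of 43 windows held it, beside 19.6% of 32851 promoters of the same length. A match describes the sequence and is not a binding site. The 250 bases before the start are shown for members on which results below turn, with each ACGTG or its complement in capitals. They are Ldha and Pgk1, which were higher in cycling than in resting lymphocytes, Slc16a3, highest in neutrophils, Bnip3, highest in tumor cells, and Hilpda, of which only a short stretch around the match is shown.

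Ldha, first start, chr7:46845554-46845803, + strand: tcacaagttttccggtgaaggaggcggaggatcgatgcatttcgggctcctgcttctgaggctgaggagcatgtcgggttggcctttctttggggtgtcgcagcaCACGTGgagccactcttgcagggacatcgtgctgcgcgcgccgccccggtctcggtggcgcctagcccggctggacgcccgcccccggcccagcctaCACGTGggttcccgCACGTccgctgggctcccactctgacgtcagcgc
Pgk1, chrX:106186850-106187099, + strand: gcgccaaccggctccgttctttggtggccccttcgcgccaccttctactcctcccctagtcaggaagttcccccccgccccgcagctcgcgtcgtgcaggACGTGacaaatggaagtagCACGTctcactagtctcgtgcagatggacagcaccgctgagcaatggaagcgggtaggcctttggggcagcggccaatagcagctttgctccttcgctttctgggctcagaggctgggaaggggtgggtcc
Slc16a3, chr11:120948817-120949066, + strand: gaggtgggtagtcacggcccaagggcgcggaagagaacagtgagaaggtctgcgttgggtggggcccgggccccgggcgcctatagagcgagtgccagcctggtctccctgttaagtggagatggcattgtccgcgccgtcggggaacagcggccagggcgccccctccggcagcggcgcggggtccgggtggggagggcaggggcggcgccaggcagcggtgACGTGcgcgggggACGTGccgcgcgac
Bnip3, chr7:138909507-138909756, - strand: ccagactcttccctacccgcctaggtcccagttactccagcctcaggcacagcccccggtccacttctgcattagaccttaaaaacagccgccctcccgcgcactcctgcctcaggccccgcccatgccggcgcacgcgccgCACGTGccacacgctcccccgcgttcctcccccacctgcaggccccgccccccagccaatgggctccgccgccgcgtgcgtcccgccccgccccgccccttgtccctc
Hilpda, 30 bases around the match upstream of the second start, chr6:29272571-29272600, + strand: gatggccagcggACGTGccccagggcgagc

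The Ldha stretch held the core 5 times, counting both strands of each CACGTG. Pgk1 and Slc16a3 carried separate copies, and Bnip3 a single CACGTG. In Hilpda, which passed 1.5-fold in the most classes in the first comparison below, the core lies 43 bases before the second start, and the window of the first start has none. No ACGTG was found in any window of Tpi1, Gpi1, Pfkl, Pfkp, Eno1, Pdk1 or Pfkfb4.

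Barcodes with fewer than 200 detected genes or over 20% mitochondrial transcripts were dropped, which left 22235, 22707 and 26967 cells from libraries of 158570946, 197176873 and 175794959 unique molecular identifiers (UMIs), each UMI standing for 1 captured transcript. These are more cells than the study states were left by the same limits. Each pair of libraries shared 137 to 180 cell barcodes, or 0.616% to 0.793% of the cells of the smaller library. Classes were named from marker genes, so that every class name below means cells like that type, and 67.2%, 76.7% and 72.3% of the kept cells fell in the 16 classes used. Lymphocytes and macrophages were split into cycling and resting cells at 1% of a cell's UMIs in S and G2/M phase genes. NK clusters were split by whether a cell had a Cd3 transcript. Levels are CPM, the UMIs of a gene per 1000000 UMIs of its class in 1 library. Values in threes follow the order mono-IL-10, IL-10/2-Trikine, IL-10/2-Trikine + anti-PD-1. With 1 library per group there is no replicate of a treatment and no test was run. Intervals are exact 95% intervals and cover counting error only, so a difference between libraries cannot be told apart from a difference between the mice or preparations behind them.

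**Figure D1:**
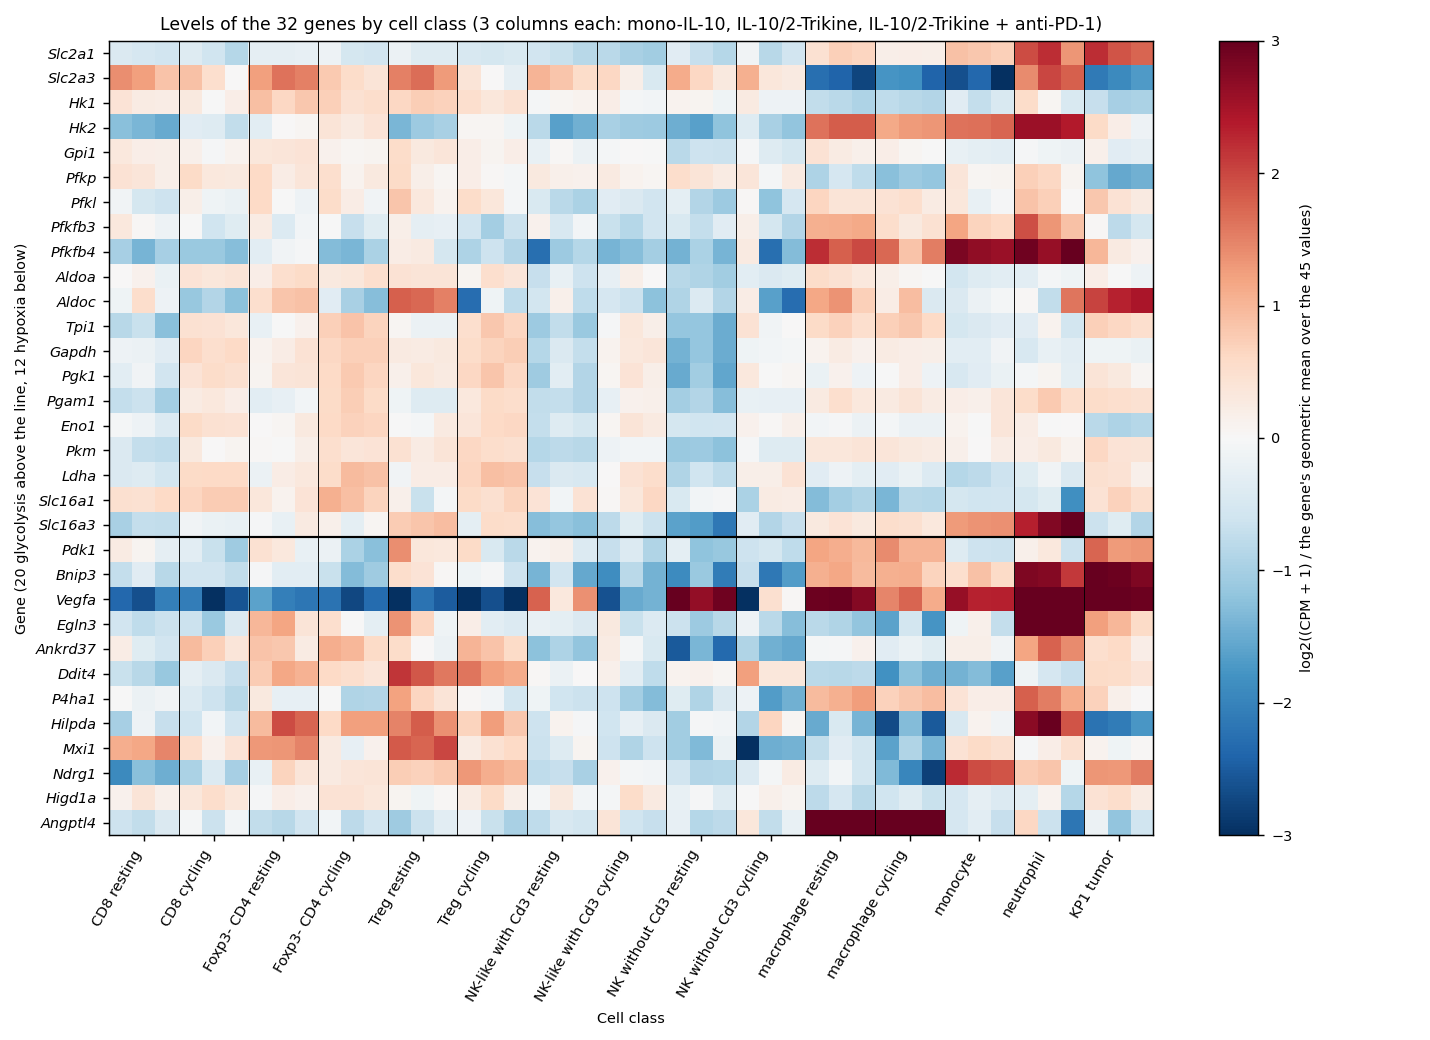
Color shows the level of each member (rows) in 15 classes (columns, 3 libraries each) as log2 of CPM + 1 over the gene's geometric mean, with colors ending at -3 and 3. Neutrophils stand out for Slc16a3, Egln3 and Hilpda, KP1 cells for Slc2a1 and Bnip3, and cycling T cells for the lower glycolytic enzymes.

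Levels of the members were first compared between cell classes. Summed over the 20 glycolysis genes, levels ran from 2266 CPM in resting NK cells without Cd3 to 7260 CPM in cycling Foxp3- CD4 T cells. Summed over the 12 hypoxia genes, they ran from 473 CPM in cycling NK-like cells with Cd3 to 2370 CPM in neutrophils. The class richest in 1 list was thus not the class richest in the other.

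Glucose enters through Slc2a1 (GLUT1) and Slc2a3 (GLUT3), the latter known for its high affinity. Slc2a1 was highest in KP1 cells, at 333, 269 and 242 CPM, and neutrophils, at 282, 335 and 181 CPM, in an order that changed between libraries. In resting CD8 T cells it stood at 52.9, 49.8 and 47.7 CPM. Slc2a3 was nearly absent from monocytes at 2.70, 3.47 and 1.80 CPM, while resting CD8 T cells had 59.6, 52.7 and 40.6 CPM and neutrophils 59.97, 90.6 and 78.8 CPM. The class means of Slc2a3 spanned 28.8-fold from lowest to highest, those of Slc2a1 only 7.67-fold. Of the UMIs of both genes, Slc2a1 made up 43.1% to 74.1% in the lymphocyte classes, 69.6% to 82.5% in neutrophils, and 93.3% to 98.7% in macrophages, monocytes and KP1 cells. Lymphocytes and neutrophils therefore carried both transporters, and the other myeloid and tumor classes almost only the first.

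Hexokinase traps glucose in the cell. Hk2, the isoform that HIF is known to induce, was highest in neutrophils in every library, at 155, 155 and 134 CPM, followed by resting macrophages at 79.6, 91.1 and 90.6 CPM. Resting CD8 T cells had 10.1, 9.16 and 8.11 CPM. Hk1, the housekeeping isoform, had 96.2, 78.9 and 89.4 CPM in resting CD4 T cells, 75.0, 53.0 and 37.1 CPM in neutrophils and 31.4, 25.2 and 26.1 CPM in KP1 cells. Of the UMIs of Hk1 and Hk2, Hk2 made up 65.6% to 78.4% in the myeloid classes, 46.5% to 54.7% in KP1 cells and 10.4% to 31.4% in lymphocytes. Hk3 was not counted in these shares. These ranges did not overlap in any library.

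**Figure D2:**
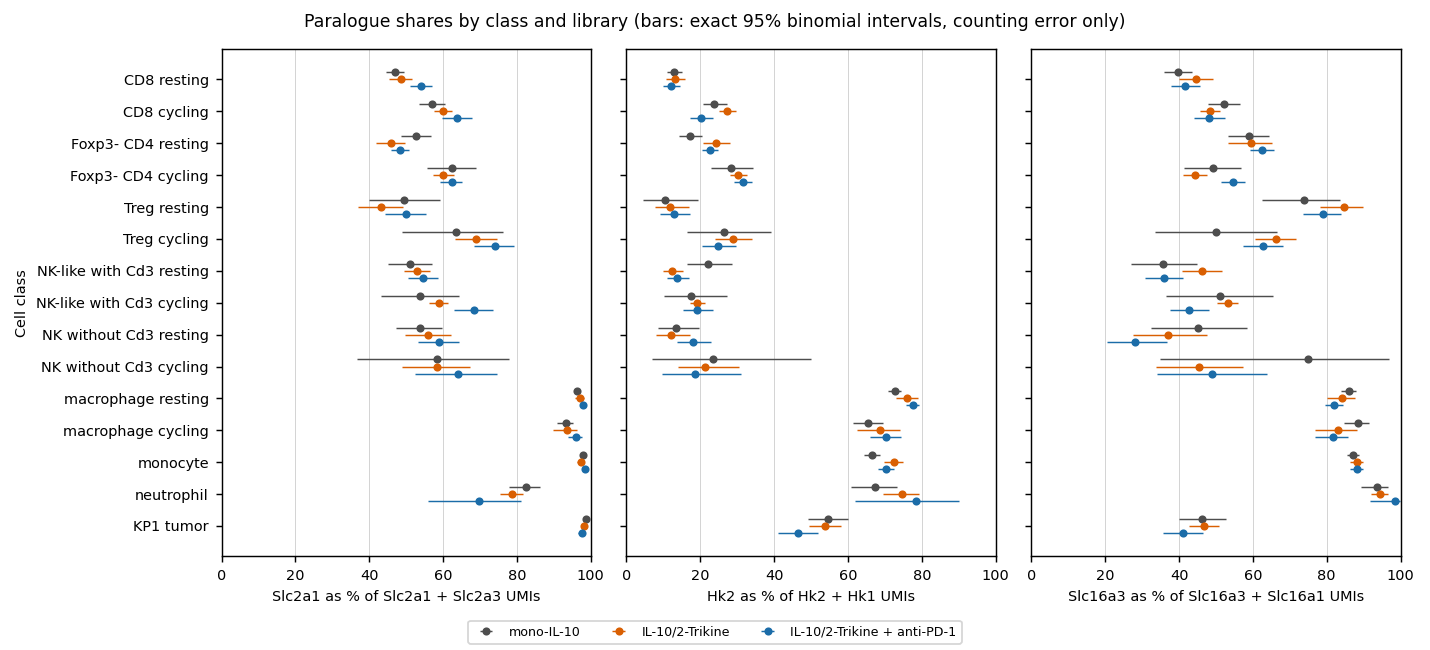
Points give the share of 1 gene among the UMIs of a pair (percent, horizontal) by class (vertical) and library (color), with exact binomial intervals. Lymphocytes lie between 43.1% and 74.1% for Slc2a1, and myeloid classes above 65% for Hk2 and above 81% for Slc16a3.

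Gpi1, which turns glucose 6-phosphate into fructose 6-phosphate, was even, with class means within 2.15-fold. Phosphofructokinase commits sugar to glycolysis. Its platelet form Pfkp was lowest, by the mean of 3 libraries, in KP1 cells at 70.4, 56.1 and 60.3 CPM, with 68.7 CPM in cycling macrophages of the mono-IL-10 library, and it had 222, 212 and 188 CPM in resting CD8 T cells. Its liver form Pfkl lay between 15.3 and 66.96 CPM in all 15 classes. Pfkfb3 and Pfkfb4 make and remove fructose 2,6-bisphosphate, an activator of phosphofructokinase. Pfkfb3 was present everywhere, from 17.8 CPM in cycling Treg cells to 146 CPM in neutrophils. Pfkfb4 was mostly myeloid, with 35.0, 28.1 and 46.3 CPM in neutrophils, 32.6, 29.2 and 27.8 CPM in monocytes, and at most 4.75 CPM in lymphocytes.

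Most enzymes from Gpi1 down varied together across classes. Over the 9 enzymes Gpi1, Aldoa, Tpi1, Gapdh, Pgk1, Pgam1, Eno1, Pkm and Ldha, the median of 36 pairwise Spearman correlations across 15 classes was 0.602, 0.566 and 0.655 in the 3 libraries, and 35, 35 and 36 of the pairs were above 0. Among the 12 hypoxia genes the medians over 66 pairs were 0.170, 0.239 and 0.0911. The classes of a library share its depth and are not independent, so these values describe and are not tested.

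Aldoa splits fructose 1,6-bisphosphate and was led, by the mean of 3 libraries, by resting macrophages at 670, 625 and 568 CPM, although resting CD4 T cells, at 524, 650 and 686 CPM, were above them outside the mono-IL-10 library. Tpi1, Gapdh, Pgk1, Pgam1 and Eno1, which carry the resulting trioses to phosphoenolpyruvate, were led by cycling CD4 or cycling Treg cells by the same mean, though not in every library. Gapdh had 2081, 2209 and 2232 CPM in cycling CD4 T cells, and 506, 604 and 480 CPM in resting NK cells without Cd3. Ldha had 1145, 1515 and 1440 CPM in cycling CD4 T cells, against 576, 592 and 533 CPM in resting CD8 T cells and 433, 448 and 503 CPM in monocytes. Resting NK cells without Cd3 were lowest of 15 classes for Gpi1, Aldoa, Tpi1, Gapdh, Pgk1, Pgam1 and Pkm, by the mean of 3 libraries. Eno1 was lowest in KP1 cells at 101, 91.9 and 96.9 CPM, although Pkm, the next enzyme, was among the highest there at 634, 544 and 538 CPM. Eno1 may share reads with its near-identical copy Eno1b, so its level is less certain. Aldoc, the brain form of aldolase, was rare, and highest in KP1 cells at 18.8, 23.1 and 25.8 CPM.

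Lactate leaves through Slc16a3 (MCT4) and passes either way through Slc16a1 (MCT1). Slc16a3 was 1 of 4 members whose highest class exceeded the fourth highest by more than 4-fold. Neutrophils had 188 (162 to 217), 255 (231 to 282) and 301 (232 to 384) CPM, a mean 5.00-fold that of the fourth class. Monocytes had 89.3, 93.6 and 94.9 CPM and resting Treg cells 61.8, 65.5 and 70.0 CPM, which were the next highest. Resting CD8 T cells had 17.9, 21.6 and 21.3 CPM. Slc16a1 was spread otherwise. By the mean of 3 libraries it was highest in cycling CD4 T cells at 41.5, 37.0 and 31.4 CPM and lowest in resting macrophages at 7.29, 9.04 and 9.80 CPM, but the leading and the lowest class changed between libraries. Slc16a3 thus took 81.6% to 98.5% of the UMIs of both transporters in myeloid cells, 74.0% to 84.7% in resting Treg cells and 28.1% to 62.5% in the other resting lymphocyte classes compared. Naive-like T cells of the mono-IL-10 library, described below, had 10.7% (7.25% to 15.1%).

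Hypoxia genes differed in their leading class. Bnip3, a mitochondrial protein of mitophagy, was highest in KP1 cells at 221 (208 to 235), 190 (181 to 198) and 171 (161 to 181) CPM, with neutrophils next at 170, 164 and 107 CPM. Its mean in KP1 cells was 4.16-fold that of the fourth class. Pdk1, the kinase that holds pyruvate back from mitochondria, also led in KP1 cells, at 53.2, 38.0 and 39.4 CPM. Egln3, the prolyl hydroxylase that HIF induces in a negative loop, belonged to neutrophils at 165 (141 to 192), 250 (226 to 276) and 97.3 (60.2 to 149) CPM. This was 9.26-fold the fourth class, and no other class mean exceeded 21.6 CPM.

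Angptl4, a secreted inhibitor of lipoprotein lipase, was a macrophage transcript. Cycling macrophages had 53.0 (47.5 to 59.0), 52.7 (44.6 to 61.7) and 76.6 (69.4 to 84.4) CPM and resting macrophages 35.7, 44.5 and 40.3 CPM. The fourth class was 20.8-fold lower. Neutrophils, highest for several other hypoxia genes by the mean of 3 libraries, had 6 and 3 UMIs of Angptl4 in the first libraries and 0 in the third, which allows up to 13.9 CPM (3 UMIs). Vegfa, the vascular growth factor, was found in neutrophils at 117, 137 and 260 CPM, KP1 cells at 139, 109 and 85.7 CPM, macrophages and monocytes. It was also present in resting NK cells without Cd3 at 96.9, 69.2 and 83.9 CPM, whereas the CD8, CD4 and Treg classes had at most 2.67 CPM.

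Among the remaining hypoxia genes, Ddit4, an inhibitor of mTORC1, and Mxi1, an antagonist of Myc, were highest in resting Treg cells in every library, at 270, 220 and 183 CPM for Ddit4 and 335, 314 and 373 CPM for Mxi1. Ndrg1, a stress-response gene, led in monocytes at 124, 102 and 96.5 CPM. P4ha1, a collagen prolyl hydroxylase, had 259, 216 and 162 CPM in neutrophils, and Ankrd37, an ankyrin protein, 43.0, 65.7 and 51.0 CPM. Higd1a, a mitochondrial protein of the respiratory chain, was the most even hypoxia gene, with class means within 2.17-fold. Free RNA, read from barcodes of 10 to 100 UMIs, held Slc2a1 at 83.5, 59.6 and 75.7 CPM, above the level of every lymphocyte class compared in the same library. By the macrophage, T or NK transcripts that each class should lack, free RNA could make up at most 3.70% of the UMIs of any lymphocyte class, 9.40% in KP1 cells, 9.33% in macrophages and monocytes, and 30% in neutrophils.

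Hilpda, which coats lipid droplets and inhibits the lipase Pnpla2, differed past 1.5-fold for IL-10/2-Trikine against mono-IL-10 in more classes than any other member. Neutrophils led with 984 (924 to 1048), 1168 (1115 to 1222) and 552 (457 to 660) CPM. Resting CD4 T cells had 289 (275 to 304), 579 (558 to 600) and 499 (487 to 512) CPM. Resting CD8 T cells had 73.7 (69.3 to 78.2), 133 (126 to 141) and 92.7 (87.4 to 98.2) CPM. Resting macrophages had 51.7 (48.8 to 54.7), 107 (99.8 to 116) and 55.8 (52.3 to 59.4) CPM. In each of these the IL-10/2-Trikine library was highest.

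**Figure D3:**
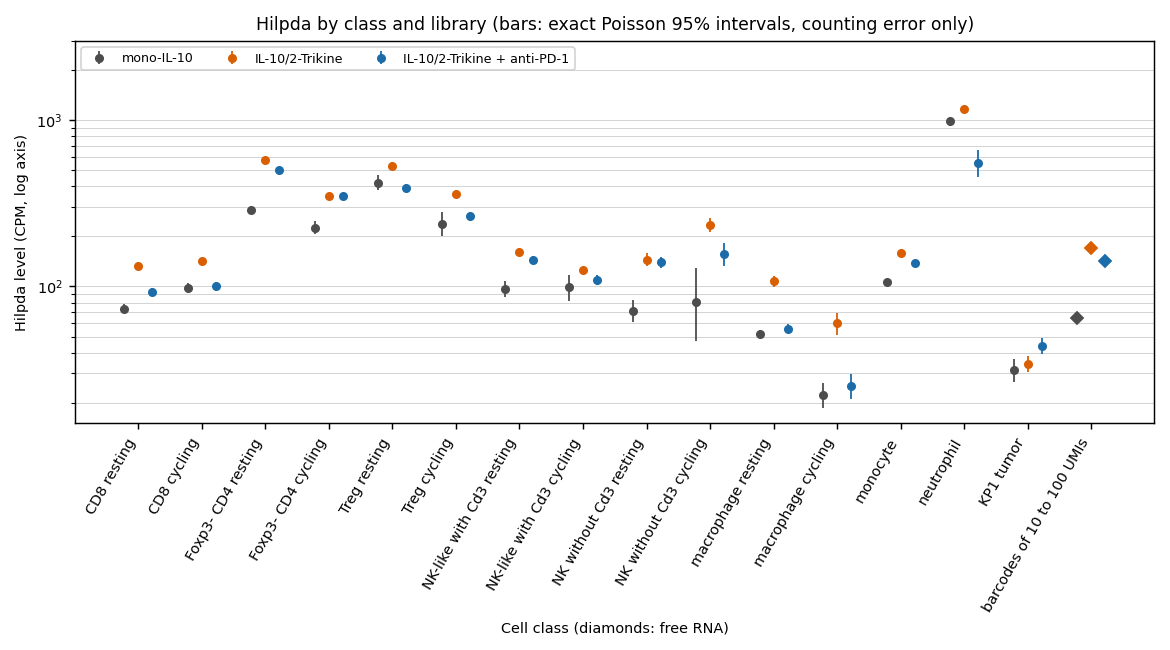
Points give the Hilpda level (CPM, log axis) by class and library, with exact Poisson intervals, and diamonds the free RNA. The IL-10/2-Trikine library lies above mono-IL-10 in 15 of 15 classes, and the combination lies below IL-10/2-Trikine in 13 of 15.

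For IL-10/2-Trikine over mono-IL-10, Hilpda was higher in 15 of 15 classes and past 1.5-fold in 10. With alternative processing it was above 0 in 207 of 212 values by class. The exceptions, down to -0.83, were in neutrophils and KP1 cells. The log2 ratio was 0.86 (0.74 to 0.97) in resting CD8 T cells, 1.0 (0.91 to 1.09) in resting CD4 T cells, 1.02 (0.77 to 1.27) in resting NK cells without Cd3 and 1.06 (0.92 to 1.19) in resting macrophages. It was 0.34 (0.16 to 0.51) in resting Treg cells, 0.25 (0.13 to 0.36) in neutrophils and 0.13 (-0.15 to 0.41) in KP1 cells. The interval included 0 only in KP1 cells. Neutrophils, with the highest level, thus had a ratio below that of every class except KP1 cells. The largest source of resting CD4 T cells differed between libraries. Under IL-10/2-Trikine it was cluster 4 (led by Il1rl1, Areg and Foxp3), with 57.7% of them. It was cluster 2 (led by Cxcr6 and Lag3) for 37.7% under mono-IL-10 and 42.3% under the combination. Within cluster 2 Hilpda had 390, 593 and 541 CPM, and within cluster 4 it had 248, 565 and 472 CPM, so the order held inside each. A cell counted as Foxp3- when no Foxp3 UMI was captured, so Treg cells may remain among those of cluster 4. The second-best marker list of cluster 4 was that of group 2 innate lymphoid cells, so such cells may remain there as well.

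Resting macrophages lay in cluster 10 (led by Cxcl13 and Cd72) for 98.5%, 94.8% and 97.4% of cells and in cluster 17 (led by Ccl8 and Mmp12) for the rest, which were 47, 66 and 82 cells. Inside cluster 10 Hilpda had 45.8, 58.7 and 47.1 CPM, and inside cluster 17 it had 409, 510 and 312 CPM. The log2 ratio of IL-10/2-Trikine over mono-IL-10 was thus 0.36 (0.18 to 0.53) inside cluster 10, in place of 1.06, and did not pass 1.5-fold. Cycling macrophages, also among the 10 classes past 1.5-fold, went from 20.9 to 28.6 CPM inside cluster 10 (0.45, 0.02 to 0.87) and did not pass there. In resting NK cells without Cd3 it was 0.90 inside cluster 8 and 0.59 inside cluster 9. Over all 20 sets of 1 class and cluster with at least 50 cells in both libraries, Hilpda was above 0 in 20.

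Free RNA held Hilpda at 64.3, 169 and 142 CPM, in the same order as most classes. At the estimated limit above, it could add 1.21, 4.47 and 4.14 CPM to resting CD8 T cells, 2.61, 10.7 and 4.16 CPM to resting macrophages and 19.2, 50.8 and 5.80 CPM to neutrophils. In neutrophils of the combination library 3 UMIs are 13.9 CPM, so the 5.80 CPM is not a firm limit. The mitochondrial share of resting macrophages was 1.83%, 1.24% and 1.34%, and that of resting CD8 T cells 1.47%, 1.44% and 1.47%. The part of these and of free RNA in the result was not tested.

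The comparison of IL-10/2-Trikine with mono-IL-10 asks what the added IL-2Rβ arm does. A gene was read in a class when the pair of libraries held at least 50 of its UMIs, and counted when its CPM differed by at least 1.5-fold. Of 427 member and class pairs read, 28 were higher and 29 lower under IL-10/2-Trikine, and 22 and 52 when classes came from a marker gate per cell. By list the first counts were for glycolysis 7 and 14 of 275 and for hypoxia 21 and 15 of 152. Over all genes in these classes 5.32% were higher and 8.58% lower, and the shares under the marker gate are not given. Hilpda alone gave 10 of the 28 higher pairs. Apart from it, most members stayed within 1.5-fold in most classes, and class medians over the members ran from -0.34 to 0.18 in log2, beside -0.11 to 0.05 for all genes.

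Several members had ratios of 1 sign in most classes. All classes come from the same pair of libraries, and how many of all genes kept 1 sign as often was not counted. Ldha was higher in 14 of 15 classes, with a median log2 ratio of 0.25, and none past 1.5-fold. Pgk1 was higher in 13 of 15, past 1.5-fold in resting NK-like cells with Cd3, where it had 141, 239 and 160 CPM (log2 ratio 0.76, 0.61 to 0.91). Higd1a was higher in 14 of 15. Others were mostly below 0. Pfkfb3 was lower in 14 of 15 and past 1.5-fold in 7, Pfkl in 13 of 14, Pfkp and Hk1 in 13 of 15, and P4ha1 in 13 of 15. Pdk1 was lower in 11 of 13 and past 1.5-fold in 4, among them resting Treg cells at 41.2, 19.46 and 18.9 CPM (-1.08, -1.76 to -0.39). Taken relative to the median of all genes in each class, these counts changed by at most 1 class, with Ldha above it in 15 of 15 and Pfkfb3 below it in 15 of 15. Inside clusters Ldha and Pgk1 were above 0 in 19 of 21 sets, Pfkfb3 was below 0 in 19 of 19 and P4ha1 in 19 of 21. Higd1a was above 0 in 17 of 21. Pfkl was below 0 in 17 of 18, Pdk1 in 13 of 14, Pfkp in 18 of 21 and Hk1 in 13 of 20. Except for Pfkp and Hk1, free RNA of the same libraries differed in the same direction, as for Ldha at 556 and 899 CPM and Pfkfb3 at 79.9 and 39.9 CPM. The part of free RNA in these ratios was not tested.

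**Figure D4:**
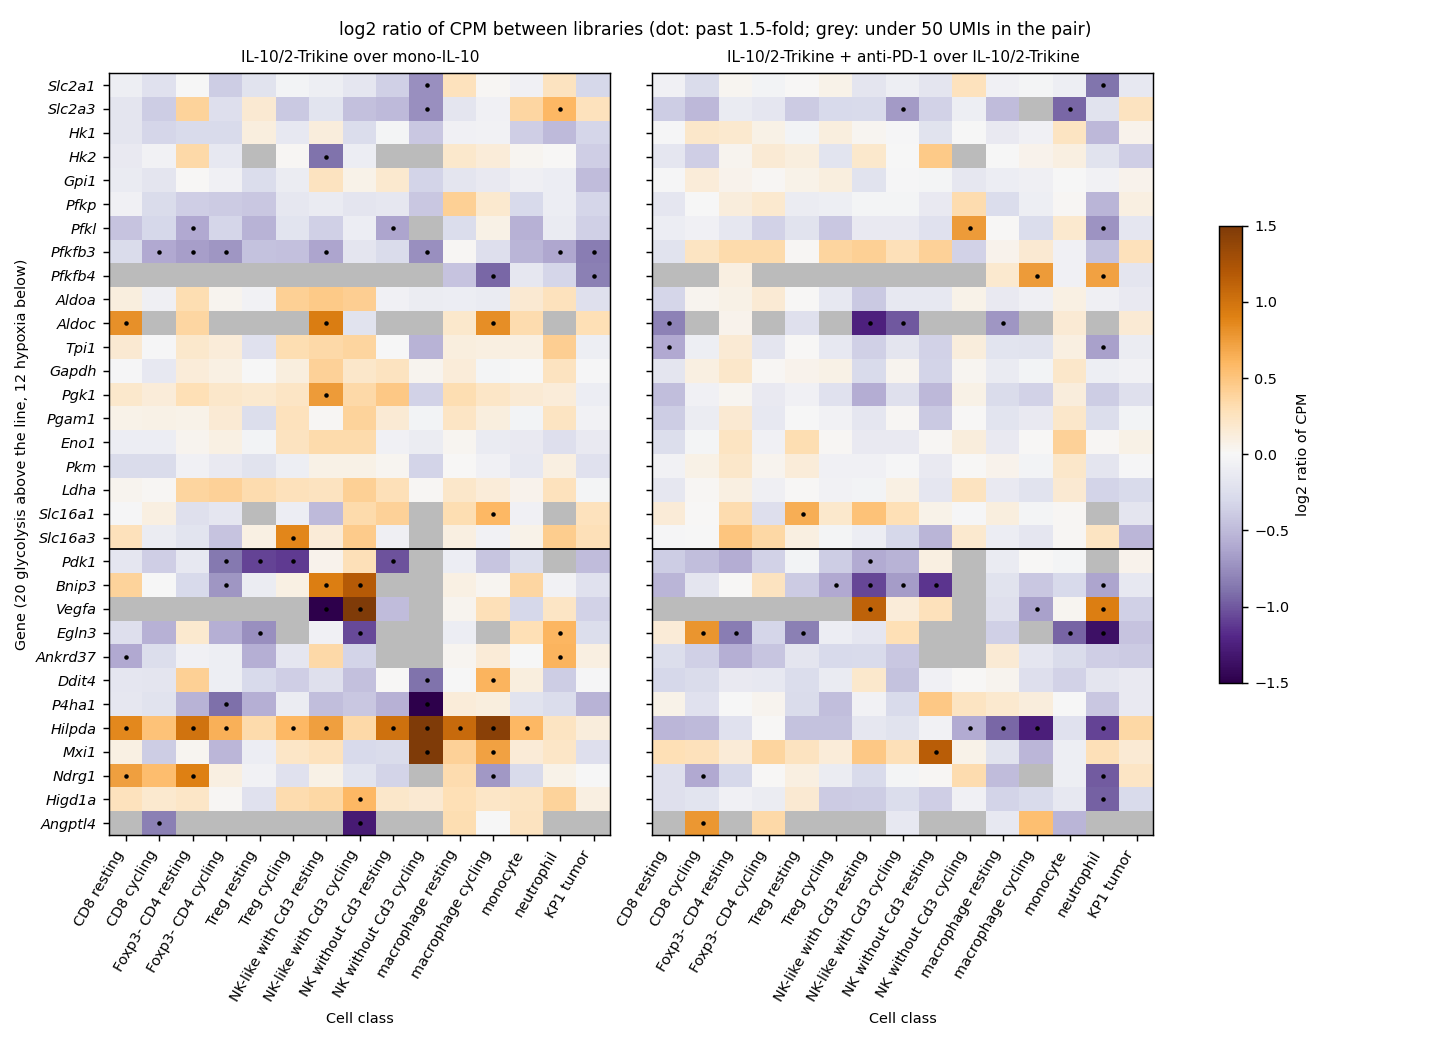
Color gives the log2 ratio of CPM for each member (rows) and class (columns) in both comparisons, with colors ending at -1.5 and 1.5, a dot where past 1.5-fold and grey where fewer than 50 UMIs were read. The Hilpda row is above 0 (orange) in all 15 classes on the left and below 0 (purple) in 13 of 15 on the right.

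In resting CD8 T cells 3 of 29 members read were higher and 1 lower, beside 3.02% and 7.59% of all genes. Hilpda, Aldoc and Ndrg1 were the highest ratios. Aldoc had 3.42, 6.01 and 3.41 CPM (0.81, 0.24 to 1.39), and Ndrg1 6.08, 10.1 and 8.60 CPM (0.73, 0.30 to 1.16). The lowest were Ankrd37 at 21.6, 14.2 and 12.01 CPM (-0.60, -0.90 to -0.31), Pfkl at 33.9, 24.9 and 23.3 CPM, and Pfkfb3 at 46.8, 38.5 and 33.5 CPM. Inside cluster 7, Bnip3 had 6.91, 15.9 and 10.6 CPM (1.202, 0.75 to 1.67) and Tpi1 94.3, 146 and 89.6 CPM (0.63, 0.50 to 0.77), which did not pass 1.5-fold with clusters pooled. In resting CD4 T cells 2 of 29 were higher and 2 lower, beside 4.3% and 9.48%. Ndrg1 had 21.8, 40.9 and 32.9 CPM (0.91, 0.58 to 1.252) and Ddit4 102, 136 and 124 CPM (0.41, 0.25 to 0.58). From mono-IL-10 to IL-10/2-Trikine, Ddit4 went from 109 to 105 CPM inside cluster 2, 129 to 172 inside cluster 3 and 102 to 139 inside cluster 4. Pfkfb3 had 44.3, 27.9 and 35.1 CPM (-0.67, -0.97 to -0.36), Pfkl 55.5, 36.5 and 32.7 CPM (-0.61, -0.88 to -0.34) and P4ha1 91.4, 62.5 and 62.2 CPM (-0.55, -0.76 to -0.34). With clusters pooled, Hilpda and Ndrg1 were thus among the 3 highest ratios in both resting T cell classes, and Pfkl and Pfkfb3 among the 3 lowest. Over all sets of 1 class and cluster, Ndrg1 was above 0 in 11 of 18.

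NK classes differed in their own way. In resting NK-like cells with Cd3, Vegfa had 37.2, 12.9 and 28.0 CPM (-1.53, -1.91 to -1.15), the lowest ratio there. These cells were split between cluster 8 (led by Klra5 and Klra6), with 63.2%, 83.9% and 63.8% of them, and cluster 9 (led by Klra4 and Klra8). The 10 leading genes of cluster 8 also held the gamma-delta T cell receptor genes Trdc and Trgc4, and 73.5% of its cells had Cd3e. Vegfa was higher in cluster 9. Inside cluster 8 it had 16.7, 8.89 and 16.1 CPM (-0.91, -1.53 to -0.27), and inside cluster 9 it had 72.8, 36.9 and 54.1 CPM (-0.98, -1.51 to -0.45). Hk2 had 13.9, 7.52 and 8.63 CPM (-0.89, -1.46 to -0.31) and Pfkfb3 40.8, 26.4 and 35.1 CPM. Aldoc, at 2.32, 4.43 and 1.87 CPM (0.93, -0.23 to 2.33), and Bnip3, at 8.30, 15.7 and 7.46 CPM (0.92, 0.30 to 1.59), were higher. In resting NK cells without Cd3, Hilpda had 71.6, 145 and 140 CPM, Pgk1 103, 144 and 101 CPM and Slc16a1 13.7, 18.1 and 18.9 CPM. Pdk1 had 12.1, 5.94 and 6.37 CPM (-1.02, -1.92 to -0.16), Pfkl 29.8, 19.3 and 16.6 CPM and P4ha1 57.1, 38.9 and 54.3 CPM. The cycling NK cells without Cd3 were 20, 201 and 127 cells, so the wide ratios of that class rest on few transcripts in the first library, such as 1 UMI of Mxi1. Cluster 8 held 50%, 68.7% and 63.0% of them, against 11.7%, 20.1% and 21.6% of resting NK cells without Cd3.

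In resting macrophages 1 of 32 members, Hilpda, was higher and 0 were lower, beside 6.22% and 3.1% of all genes, and inside cluster 10 Hilpda did not pass 1.5-fold. Pfkp had 86.7, 116 and 96.4 CPM (0.42, 0.30 to 0.54) and Mxi1 55.1, 73.1 and 63.5 CPM (0.41, 0.25 to 0.56). Pfkfb4 had 21.2, 15.6 and 17.7 CPM (-0.44, -0.76 to -0.14), Pfkl 57.7, 48.0 and 48.0 CPM and Gpi1 251, 220 and 206 CPM, the lowest ratios. In neutrophils 3 of 28 were higher and 1 lower, beside 14.1% and 24.5% of all genes. Those higher were Egln3 (0.60, 0.34 to 0.87), Slc2a3 (0.60, 0.15 to 1.06), Ankrd37 (0.61, 0.09 to 1.16), and the lower was Pfkfb3 (-0.62, -0.96 to -0.28). Neutrophils were 336, 638 and 114 cells with median depths of 2037, 1317 and 1406 UMIs. In KP1 cells Pfkfb3 had 38.3, 21.3 and 25.8 CPM (-0.84, -1.13 to -0.55) and Pfkfb4 8.502, 4.81 and 4.25 CPM, which were the 2 of 31 members read that were lower, and 0 were higher, beside 10.1% and 1.81% of all genes. KP1 cells had median depths of 1362, 9884 and 3179 UMIs. Cluster 15 held 52.9%, 39.5% and 38.2% of them and cluster 20 the rest. Relative to the library median, depth was 0.17 in cluster 15 and 2.59 in cluster 20, and 14.0% and 53.2% of their cells had Mki67. KP1 ratios are given without a split by cluster or cycling, and the part of depth and of this mix was not tested.

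Adding PD-1 blockade to the Trikine, as the treatment labels give it, was addressed by setting the combination library against that of IL-10/2-Trikine. It shares the IL-10/2-Trikine library with the comparison above, so the values of the 2 comparisons are not independent. Of 436 pairs read, 9 were higher and 28 lower in the combination, and 15 and 36 with every cell at equal weight. By list the first counts were for glycolysis 4 and 10 of 281 and for hypoxia 5 and 18 of 155. Over all genes 4.54% were higher and 3.57% lower, and the shares at equal weight are not given. Hypoxia genes had 11.6% of pairs lower. The class median over the hypoxia genes was below that over all genes in 13 of 15 classes, and ran from -0.52 in neutrophils to 0.03 in cycling NK cells without Cd3. The class median over the glycolysis genes was above that over all genes in only 3 of 15, so this position was not particular to the hypoxia genes.

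Hilpda was lower in 13 of 15 classes and past 1.5-fold in 4. Its log2 ratio was -0.95 (-1.09 to -0.81) in resting macrophages, -1.26 (-1.59 to -0.92) in cycling macrophages, though 0.0049 there at a cycling cut of 2%, and -1.08 (-1.36 to -0.81) in neutrophils. It was -0.53 (-0.64 to -0.41) in resting CD8 T cells and -0.45 (-0.57 to -0.33) in resting Treg cells, but -0.21 (-0.28 to -0.15) in resting CD4 T cells and -0.05 (-0.22 to 0.12) in resting NK cells without Cd3. KP1 cells went the other way, at 0.36 (0.14 to 0.59). Inside cluster 10 the ratio was -0.32 (-0.50 to -0.13) in resting and -0.19 (-0.61 to 0.24) in cycling macrophages, and neither passed 1.5-fold. In resting macrophages the combination was thus close to mono-IL-10 in level, while resting CD4 T cells and resting NK cells stayed closer to IL-10/2-Trikine.

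Some other hypoxia genes had ratios below 0 in most classes. Here too, how many of all genes kept 1 sign as often was not counted. Higd1a was lower in 14 of 15 classes, past 1.5-fold in 1, Ankrd37 in 12 of 13, past 1.5-fold in 0, and Bnip3 in 12 of 14, past 1.5-fold in 5. Others were split, with Vegfa above 0 in 5 of 8, P4ha1 in 6 of 15 and Angptl4 in 3 of 6. Bnip3 had 8.30, 15.7 and 7.46 CPM in resting NK-like cells with Cd3 (-1.07, -1.51 to -0.64) and 5.63, 10.4 and 4.73 CPM in resting NK cells without Cd3 (-1.14, -1.96 to -0.34). Egln3 was past 1.5-fold lower in 4 of 12 classes, including resting CD4 T cells at 22.3, 25.2 and 14.2 CPM (-0.83, -1.17 to -0.50) and monocytes at 9.58, 11.8 and 6.08 CPM, and past it higher in cycling CD8 T cells at 6.48, 4.40 and 7.62 CPM (0.79, 0.32 to 1.26). Mxi1 ran opposite and was higher in 12 of 15, with 44.2, 36.5 and 81.2 CPM in resting NK cells without Cd3 (1.15, 0.86 to 1.46). Among glycolysis genes Aldoc was past 1.5-fold lower in 4 of 8 classes, Slc2a3 lower in 13 of 14, Pgk1 in 12 of 15, and Pfkfb3 higher in 11 of 15.

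In resting CD8 T cells 0 of 29 members were higher and 2 lower, beside 5.61% and 2.82% of all genes. These were Aldoc (-0.82, -1.42 to -0.22) and Tpi1, at 148, 167 and 110 CPM (-0.60, -0.70 to -0.49). Bnip3 had 14.0, 18.4 and 12.7 CPM, Mxi1 198, 210 and 259 CPM (0.30, 0.22 to 0.38), Slc16a1 27.3, 26.9 and 29.9 CPM, and Egln3 6.85, 5.80 and 6.41 CPM. Of the glycolysis genes 1 of 19 had a ratio above 0, with a median of -0.18 and a sum of 4054, 4027 and 3473 CPM. Inside clusters it was 2 of 17 in cluster 2, with a median of -0.40, and 2 of 19 in cluster 7, with a median of -0.19. In resting CD4 T cells 0 of 30 were higher and 1 lower, beside 3.99% and 3.49%. There Pdk1 had 21.2, 19.1 and 12.8 CPM (-0.58, -0.94 to -0.20) and Ankrd37 34.3, 32.9 and 22.2 CPM (-0.57, -0.85 to -0.29), although inside cluster 4 the Pdk1 ratio was 0.03. Slc16a3 had 35.3, 30.8 and 43.6 CPM (0.50, 0.25 to 0.76), and Slc16a1 24.6, 21.0 and 26.2 CPM. In resting CD4 T cells 18 of 20 glycolysis genes had ratios above 0, with a median of 0.12, while 2 of 10 hypoxia genes had. Class medians over all genes ran from -0.03 to 0.07 in this comparison. The share of all genes above 0 was not counted for resting CD8 or resting CD4 T cells. Because the clusters that supplied resting CD4 T cells differed between libraries, the ratios were also taken inside clusters. They were above 0 for 14 of 19 glycolysis genes in cluster 2 and 13 of 18 in cluster 3, but for 11 of 18 with a median of 0.01 in cluster 4. There the glycolysis sum was 4211, 4919 and 4776 CPM, Ldha 623, 811 and 730 CPM and Pgk1 265, 343 and 305 CPM, so the direction turned for these.

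In resting NK-like cells with Cd3, Aldoc (-1.248, -2.18 to -0.39) and Pdk1, at 16.3, 16.9 and 11.2 CPM (-0.59, -0.97 to -0.22), were lower, and Vegfa (1.12, 0.80 to 1.44), Slc16a1, at 25.9, 18.3 and 26.3 CPM, and Mxi1, at 59.1, 70.8 and 98.7 CPM, were higher. The shares of the clusters differed here too, and inside clusters 8 and 9 the ratios were 0.86 and 0.55 for Vegfa, 0.61 and 0.41 for Slc16a1 and 0.48 and 0.56 for Mxi1. In resting NK cells without Cd3, Slc16a3 had 11.3, 10.7 and 7.40 CPM (-0.53, -1.24 to 0.18), Pgk1 was lower (-0.51, -0.70 to -0.33), P4ha1 was higher (0.48, 0.17 to 0.79) and Hk2 had 8.45, 7.43 and 10.3 CPM (0.47, -0.25 to 1.22). In resting macrophages 0 of 32 were higher and 2 lower, beside 2.43% and 4.35% of all genes, namely Hilpda and Aldoc, at 9.95, 11.4 and 6.94 CPM (-0.71, -1.14 to -0.28). Slc2a3 followed at 3.80, 3.35 and 2.39 CPM, and Pfkfb4 (0.18, -0.14 to 0.52), P4ha1 (0.18, 0.08 to 0.28) and Ankrd37 (0.16, -0.14 to 0.47) had the highest ratios. In neutrophils 2 of 28 were higher and 8 lower, beside 19.4% and 20.1%. The 8 included Egln3 (-1.36, -2.07 to -0.73), Slc2a1 (-0.89, -1.40 to -0.42) and Higd1a (-0.97, -1.77 to -0.26), and Vegfa was higher (0.92, 0.47 to 1.35). The estimated limit of free RNA was 30% of neutrophil UMIs under IL-10/2-Trikine and 4.1% in the combination. Neutrophils of the combination had only 215762 UMIs and the estimate leaves out counting error, so the 4.1% is not a firm limit. The part of free RNA in these ratios was not tested. In KP1 cells 0 of 31 were higher and 0 lower, beside 8.32% and 1.35%.

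Cycling cells carried more of the lower glycolytic enzymes than resting cells of the same subset and library, among lymphocytes. Over 5 T and NK subsets in 3 libraries, 100 of 271 glycolysis pairs were past 1.5-fold higher in cycling cells and 21 lower, against 18 and 50 of 142 for hypoxia genes. Over all genes 18.5% were higher and 23.0% lower. The median ratio of the glycolysis genes was smaller at a cycling cut of 2%, as given at the end. Ldha was higher in 15 of 15 and past 1.5-fold in 14, at 576 to 1163, 592 to 1174 and 533 to 1185 CPM from resting to cycling CD8 T cells. Tpi1 and Pgam1 were past 1.5-fold in 13 of 15, Eno1 in 12, and Gapdh, Pgk1 and Pkm in 9. Hk2 was higher in 11 of 12.

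Cycling and resting cells lay in different clusters, since cluster 7 held 72.3%, 82.6% and 68.5% of resting CD8 T cells and cluster 5 held 72.4%, 83.5% and 77.4% of cycling ones. Ratios were therefore also taken inside clusters, in the 19 sets of 1 subset, cluster and library with at least 50 cells on each side. Of 328 glycolysis pairs 68 were past 1.5-fold higher and 26 lower, and of 164 hypoxia pairs 15 and 56, beside 15.4% and 18.9% of all genes. Ldha stayed above 0 in 19 of 19 sets but past 1.5-fold in 9, with a median log2 ratio of 0.57. From resting to cycling CD8 T cells it went from 445 to 647 CPM in cluster 7 of the mono-IL-10 library and from 626 to 1085 CPM in cluster 2 of the combination. Tpi1, Gapdh, Pgk1 and Pkm were above 0 in 19 of 19 sets and Pgam1 and Eno1 in 18. Hk2 was above 0 in only 4 of 12 sets, so that its direction did not hold inside clusters.

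The pathway did not move whole. Gpi1 and Pfkp, which stand above these enzymes, had median log2 ratios of -0.17 and -0.07. Slc2a3 was lower in 15 of 15 and past 1.5-fold in 9, at 59.6 to 41.0, 52.7 to 31.5 and 40.6 to 22.1 CPM in CD8 T cells, and Aldoc was past 1.5-fold lower in 6 of 6. Among hypoxia genes Pdk1 was lower in 12 of 12, Mxi1 in 14 of 15, P4ha1 in 14 of 15 and Vegfa in 6 of 6. Ankrd37 and Ndrg1 ran opposite, higher in 10 of 10 and 13 of 14. Inside clusters Slc2a3 was above 0 in 2 of 18 sets, Pdk1 in 0 of 11, P4ha1 in 0 of 19 and Mxi1 in 1 of 19, while Ankrd37 was above 0 in 11 of 13 and Ndrg1 in 9 of 15. Hypoxia genes were therefore mixed, with class medians from -0.82 in Treg cells of the mono-IL-10 library to 0.22 in CD8 T cells of the same library.

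**Figure D5:**
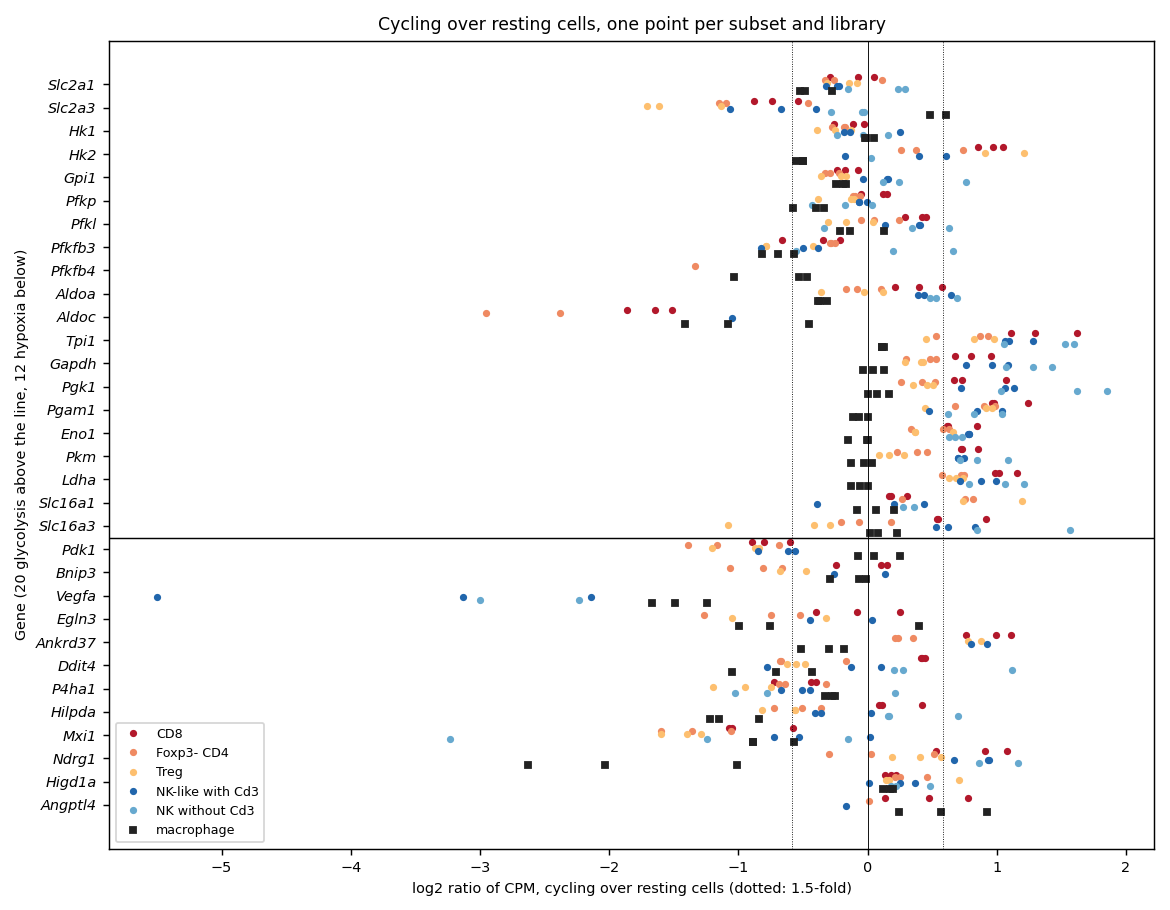
Points give the log2 ratio of CPM in cycling over resting cells (horizontal) for each member (vertical), 1 point per subset (color) and library, with dotted lines at 1.5-fold. Points for Tpi1, Gapdh, Pgk1, Pgam1, Eno1, Pkm and Ldha lie right of 0 in all 15 lymphocyte values, and the macrophage squares for these genes lie within 1.5-fold.

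Macrophages did not share this pattern. Past 1.5-fold, 1 of 59 glycolysis pairs was higher in cycling macrophages and 5 lower, and 1 of 36 hypoxia pairs was higher and 15 lower, beside 13.2% and 8.18% of all genes. Ldha had 614 and 614, 705 and 676, and 640 and 587 CPM in resting and cycling cells. Hk2, higher in most cycling lymphocyte subsets when clusters were pooled, was lower here in 3 of 3 libraries, with a median log2 ratio of -0.50. Vegfa, Hilpda and Ndrg1 were past 1.5-fold lower in 3 of 3, Hilpda at 51.7 to 22.2, 107 to 59.9 and 55.8 to 25.1 CPM. Angptl4 was higher in 3 of 3. The cut passed through a continuum, since 157 of 656, 96 of 408 and 168 of 726 cycling macrophages had cycle shares from the cut of 1% to 1.33%. Among cycling CD8 T cells 75 of 609, 96 of 1610 and 76 of 761 did. Cycling cells were also deeper, with median UMIs of 11719, 10527 and 10269 in cycling and 4051, 3280 and 3179 in resting CD8 T cells. Malat1, a nuclear RNA, was 10394, 8923 and 11274 CPM in resting and 3623, 2703 and 3472 CPM in cycling CD8 T cells, and the part of these in the ratios was not tested.

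A further class of naive-like T cells was described but not compared, because it did not hold the same cells in each library. It had 1281, 152 and 175 cells, and its naive markers summed to 5184, 2513 and 2611 CPM. In the mono-IL-10 library, where these markers were highest, the 20 glycolysis genes summed to 2341 CPM, below every compared class and library except resting NK cells without Cd3 of the combination library, and Gapdh stood at 611 CPM, Ldha at 350 CPM and Hilpda at 41.4 CPM.

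Other genes of these pathways were counted from lists of 38 glycolytic, 9 oxygen-sensing and 30 HIF target genes. For IL-10/2-Trikine over mono-IL-10, 7 of 218 pairs of the further glycolytic genes were higher and 16 lower, 8 and 8 of 98 for oxygen sensing, and 21 and 27 of 240 for further HIF targets. Between the combination and IL-10/2-Trikine the counts were 8 and 7 of 225, 1 and 2 of 104, and 15 and 21 of 242. The shares of further glycolytic genes were 3.21% and 7.34% in the first comparison and 3.56% and 3.11% in the second, below those of all genes. The shares of oxygen-sensing genes were 8.16% and 8.16%, then 0.96% and 1.92%. The shares of further HIF targets were 8.75% and 11.2%, then 6.20% and 8.68%, above those of all genes in each direction. Mt1 alone gave at least 7 of the 21 higher pairs of these targets in the first comparison, so that share rests in part on 1 gene.

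Past 2-fold, some targets recurred over several classes. Mt1, a metallothionein, had 38.9, 88.1 and 58.0 CPM in resting CD8 T cells and 13.7, 52.0 and 54.8 CPM in resting CD4 T cells, and for IL-10/2-Trikine over mono-IL-10 it exceeded 2-fold in 7 classes, all of them lymphocytes. Arg1, the arginase of alternatively activated macrophages, had 1.57, 42.4 and 14.1 CPM in resting macrophages, of which cluster 10 alone had 1.46, 4.09 and 2.23 CPM, 24.3, 96.4 and 144 CPM in monocytes and 2.86, 17.4 and 1.57 CPM in resting CD4 T cells, but it was lower under IL-10/2-Trikine in resting CD8 T cells, at 5.94, 1.63 and 1.14 CPM. At Leiden resolution 2 a cluster named group 2 innate lymphoid cells, with Arg1 among its leading genes, held 33, 115 and 29 cells. The part of such cells in the Arg1 level of resting CD4 T cells was not tested. Rora, a nuclear receptor, was lower under IL-10/2-Trikine at 265, 130 and 217 CPM in resting CD8 T cells, 170, 84.8 and 135 CPM in cycling ones and 168, 74.4 and 75.0 CPM in cycling NK-like cells with Cd3. Epas1, which encodes HIF-2α, had 1.88, 5.10 and 1.17 CPM in resting macrophages, but 1.86, 1.96 and 1.15 CPM inside cluster 10. Plin2, a lipid droplet protein like Hilpda, had 429, 623 and 292 CPM in neutrophils and 30.2, 12.7 and 25.5 CPM in KP1 cells. Of the glycolytic genes, the muscle enolase Eno3 had 11.3, 24.6 and 11.0 CPM in monocytes, Ldhb 12.4, 3.46 and 4.65 CPM in cycling macrophages, and Slc2a6 4.98, 3.09 and 8.16 CPM in resting NK-like cells with Cd3.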

How the data were processed

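Live CD45+ cells of KP1 tumors were sequenced by droplet 3' single-cell RNA sequencing, 1 library for each of 3 treatments. The authors aligned reads with Cell Ranger, and the deposited values were unfiltered UMI counts per gene and barcode. The labels name mm10, whereas the study's methods name GRCm39, so no gene coordinates were taken from the counts. Promoter coordinates and letters are RefSeq's on GRCm38.p6, with entries for 29 of 32 members. Slc2a3, Ndrg1 and Angptl4 had none.

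Barcodes under 200 genes or over 20% mitochondrial UMIs were dropped, doublets were not removed, and the remaining cells were clustered with Scanpy 1.11.5 (2000 variable genes, 30 components, 20 neighbours, Leiden resolution 1, giving 22 clusters). Clusters were named from marker lists. T cells were gated by 1 UMI of Cd8a or Cd8b1, Cd4, or Foxp3. Counts were summed by class and library and divided by the summed UMIs. The feature rows of Aldoa were summed. A ratio was read from 50 UMIs in the pair and counted past 1.5-fold. Levels carry exact Poisson intervals, shares exact binomial (Clopper-Pearson) intervals, and ratios intervals from the binomial distribution of one library's UMIs given both. All cover counting error only, at 95%. The limit for 0 UMIs is 3 UMIs. The free RNA limit in a class was the lowest ratio of class level to free level among genes of other cell types at 100 CPM or more in free RNA. It has no allowance for counting error.

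Values were written out for members past 1.5-fold in 1 direction in at least 50% of the classes read, for the 3 highest and 3 lowest ratios in resting CD8, CD4, NK and macrophage classes, for members whose leading class exceeded the fourth by over 4-fold, and for some other pathway genes past 2-fold. Further values illustrate the other members. The members and lists were chosen with earlier results of these data known. Scripts used Python 3.11.15 and scipy 1.17.1 and were tested on simulated data. Classes without clusters, other filters, doublet removal, free RNA subtraction and other thresholds were tried as alternatives.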

Additional observations from a re-analysis of the deposited data

Results flagged for a closer look

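Ratios of cycling over resting cells were above 0 in every library in one of CD8 T cells and macrophages and below 0 in every library in the other for 7 members. The median log2 ratio of the 3 CD8 libraries minus that of the 3 macrophage libraries was 1.47 for Hk2, 0.77 for Aldoa, 1.08 for Ldha, 1.29 for Ankrd37, 1.13 for Ddit4, 1.26 for Hilpda and 2.94 for Ndrg1. The 7 had ratios above 0 in CD8 T cells and below 0 in macrophages, but some intervals included 0, as for macrophage Ldha at -0.0011 (-0.053 to 0.050) in the mono-IL-10 and -0.06 (-0.14 to 0.01) in the IL-10/2-Trikine library, and for Ankrd37 at -0.30 (-0.64 to 0.03) and -0.18 (-0.70 to 0.32) in macrophages of the same libraries. The Hilpda interval in CD8 T cells included 0 as well, at 0.09 (-0.0073 to 0.18) under IL-10/2-Trikine and 0.11 (-0.014 to 0.24) in the combination. Cycling and resting CD8 T cells lay mostly in different clusters, and inside clusters the ratio was above 0 in 5 of 5 sets for Ldha and Ankrd37, 3 of 4 for Ndrg1, 3 of 5 for Aldoa, 2 of 5 for Ddit4 and Hilpda and 1 of 4 for Hk2. Over all genes, the median cycling over resting log2 ratio was -0.11, -0.08 and -0.10 in CD8 T cells and 0.03, 0.03 and 0.07 in macrophages. How many of all genes met the same rule was not counted, so the 7 cannot be set against a share of all genes. These differences were not tested.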

How the results depend on the processing

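No paired analysis was possible because each treatment group is 1 library, and for the same reason no replicate of a treatment could be left out. The cycling contrast was taken inside each of 3 libraries, and no fit paired by library was run. With each library left out in turn, added after seeing the data, its median was 0.29 to 0.38 for glycolysis genes and -0.38 to -0.12 for hypoxia genes, against -0.31 with all, the -0.12 being without the IL-10/2-Trikine library. The median log2 ratio over all pairs of IL-10/2-Trikine over mono-IL-10 was -0.04, 0.012 relative to the median of all genes and -0.078 with classes from a marker gate per cell, which gave 52 in place of 29 lower pairs. At the lower threshold tried, a 25% difference, the counts were 66 higher and 82 lower, at 2-fold 8 and 7, and with at least 200 UMIs 18 and 10. For the combination over IL-10/2-Trikine the 9 higher pairs became 15 with every cell at equal weight, 27 at that lower threshold, 2 at 2-fold, 14 with at least 20 UMIs and 3 with at least 200. The 28 lower pairs became 88, 7 and, with at least 200 UMIs, 18. Shares of all genes are not given for these alternative settings, so the counts of members cannot be set against them. The median cycling over resting ratio of glycolysis genes in lymphocytes was 0.34, 0.13 at a cycling cut of 2% and 0.46 relative to all genes. Inside clusters, a comparison added after seeing the data, it was 0.23, and the medians of both treatment comparisons stayed close to those pooled over clusters, while Hilpda in macrophages fell under 1.5-fold. Hilpda of IL-10/2-Trikine over mono-IL-10 was above 0 in 207 of 212 values by class and alternative, the exceptions being in neutrophils and KP1 cells. The combination over IL-10/2-Trikine reversed for Hilpda in cycling macrophages at a cycling cut of 2%, to 0.0049. The cause of these changes was not tested beyond fewer or more pairs being read or counted. Scrublet's automatic threshold marked no cell in the IL-10/2-Trikine and combination libraries, so that alternative did not work there, and removal of the 10% of cells with the highest scores was added after seeing the data, as were limits of 5% mitochondrial UMIs and of 2000 UMIs.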
